A study of Mus musculus with 10 samples.

Results

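The genes described here carry names of the solute carrier (SLC) families SLC1, SLC3, SLC7, SLC36, SLC38 and SLC43, which consist mostly of amino acid transporters. They were chosen by name: 45 rows of the count table carry a symbol of these families, 12 of them are at 0 in every library, and the 33 with any count are the members, of 19014 genes with any count in all. Of the 33 members 32 are named as transporters. The last, Slc7a6os, has a matching name but encodes a factor for the nuclear import of RNA polymerase II. The libraries are total RNA of group 2 innate lymphoid cells (ILC2), tissue lymphocytes without antigen receptors that secrete type 2 cytokines. They came from lungs of C57BL/6 mice, either wild type (WT, 5 libraries) or c-Maf KO (5 libraries), after lung inflammation caused by papain, a protease allergen. In both genotypes the animals were cohoused littermates and the cells were sorted as lin-, CD90.2+, with or without ST2 and KLRG1. The sources used here do not state age, sex, the part of Maf removed or the cell type in which it was removed. Library numbers follow the deposit and pair no WT with a KO library. No source states that every library is its own animal, and the p-values below describe only the spread among libraries.

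Amino acid transporters set how fast a lymphocyte can grow, because activated lymphocytes take up more leucine, glutamine, arginine and cystine. Many members of SLC7 reach the cell surface only when joined to a heavy chain of SLC3, and most of these pairs exchange amino acids rather than accumulate them. Many SLC1, SLC36 and SLC38 proteins use sodium, proton or exchange coupling. Some proteins of these families lie in the lysosome, where amino acids are sensed by the kinase complex mTORC1.

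The promoter sequences of the member that rose and of the members with the smallest p among those that fell are shown. They mark the RefSeq start of each gene and which short motifs lie there. Each is the stretch of 250 bases before the RefSeq start (GRCm38.p6), written 5′ to 3′ on the gene's strand, at chr3:50443614-50443863 (minus strand) for Slc7a11, chr12:73286598-73286847 (plus strand) for Slc38a6 and chr9:15709488-15709737 (plus strand) for Slc36a4. Capitals mark matches to 4 motifs searched on both strands, of which the MAF half-site and the AP-1 site can overlap: the MAF half-site TGCTGAC, the amino acid response element TGATGNAA, the AP-1 site TGACTCA and the cyclic AMP response element TGACGTCA.
Slc7a11: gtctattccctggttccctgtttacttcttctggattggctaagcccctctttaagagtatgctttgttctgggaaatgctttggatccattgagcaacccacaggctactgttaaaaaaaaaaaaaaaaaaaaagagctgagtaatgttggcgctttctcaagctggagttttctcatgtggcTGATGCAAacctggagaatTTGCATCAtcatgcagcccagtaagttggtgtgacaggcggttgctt
Slc38a6: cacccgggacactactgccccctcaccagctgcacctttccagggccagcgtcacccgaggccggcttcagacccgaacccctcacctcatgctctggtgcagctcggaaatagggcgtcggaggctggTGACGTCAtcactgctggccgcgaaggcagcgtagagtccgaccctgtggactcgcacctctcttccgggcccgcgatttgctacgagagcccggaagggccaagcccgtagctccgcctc
Slc36a4: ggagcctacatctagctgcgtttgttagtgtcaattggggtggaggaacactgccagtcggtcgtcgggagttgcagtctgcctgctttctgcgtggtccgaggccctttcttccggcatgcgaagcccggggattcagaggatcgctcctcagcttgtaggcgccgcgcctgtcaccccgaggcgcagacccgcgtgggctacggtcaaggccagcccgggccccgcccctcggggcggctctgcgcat
The Slc7a11 window held the amino acid response element at 66 to 59 bases before the start and, on the opposite strand, at 47 to 40 bases before it. The Slc38a6 window held the cyclic AMP response element at 121 to 114 bases before the RefSeq start, and the Slc36a4 window held none of these letters. The GENCODE span of Slc38a6 begins at 73286779, inside this window, so the motif lies nearer to that start and the end of the window lies within the span. RefSeq promoters were matched for 28 of the 33 members (38 windows). The amino acid response element was in 3 of these windows (Slc7a11 and 2 starts of Slc7a7) and in 3.45% of all 32851 windows, the MAF half-site in 1 (Slc7a15) and in 3.81%, the AP-1 site in 2 (Slc7a1 and Slc3a1) and in 4.46%, and the cyclic AMP response element in 1 and in 1.55%.

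The KO libraries were much smaller and poorer than the WT libraries. WT libraries held 21400938 to 24489987 counts and KO libraries 3620002 to 9867580, with factors for library composition (TMM) of 1.462 to 1.908 in WT and 0.1803 to 0.9276 in KO. Maf, the targeted gene, had 1412 to 3832 counts in WT, 0 in 4 KO libraries and 108 in KO library 4, below every WT count. The part of Maf removed is not stated, so this count does not settle the label of KO library 4, and values without that library are given where they differ. The log2 fold change was −4.34 (edgeR adjusted p = 0.141). All 12 ILC2 markers were detected. Their summed level was 7620 to 11400 counts per 1000000 counts of the library (CPM) in WT and 750 to 16400 CPM in KO. With edgeR 0 of them passed the test in either direction, and 2 were higher at an unadjusted p under 0.05. DESeq2 called 3 of them higher at an adjusted p under 0.05. Red blood cell markers summed to 1.43 to 9.19 CPM in WT and to 120 to 190000 CPM in KO, the highest in KO library 1, and all 4 tested of 7 rose with edgeR, while DESeq2 gave no adjusted p for any of these 4. Macrophage markers (7 of 7 detected) summed to 3.25 to 2950 CPM in WT, the highest in WT library 4, and to 0.22 to 6.52 CPM in KO, and both tested ones, Lyz2 and Chil3, fell with edgeR. Dendritic cell markers (5 of 5 detected) summed to 5 to 26.4 CPM in WT and 0 to 0.21 CPM in KO, and the 1 tested, Xcr1, fell. Fibroblast markers were at 550 CPM in KO library 1 and at most 0.552 CPM elsewhere, and B cell markers at 186 CPM in KO library 4 and at most 6.73 CPM elsewhere. T cell markers summed to 17.7 to 129 CPM in WT and 0.552 to 23.5 CPM in KO, with Cd8a and Cd8b1 at 0 everywhere, and endothelial markers to 37.5 to 166 and 0 to 18.2 CPM, with Cdh5 at 0. In bulk libraries such as these, fewer cells of a type and less RNA per cell cannot be told apart.

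Fewer transporter genes were found in KO libraries than in WT libraries. Over 3 counts were found for 21, 22, 22, 24 and 19 of the 33 members in WT libraries 1 to 5, against 3, 9, 11, 10 and 5 in KO libraries 1 to 5. The lowest WT library thus held more members than the highest KO library. As means these are 21.6 ± 1.82 members (65.46%) for WT and 7.6 ± 3.44 members (23.04%) for KO (SD, n = 5 libraries each), beside 54.42% and 18.7% of all genes with any count. After thinning every library to 3620002 counts, the means were 20.2 and 7.2 members. Of the 33 members 16 had over 3 counts in all 5 WT libraries, and 2 of these, Slc7a8 and Slc38a1, had over 3 counts in all 5 KO libraries as well. In KO, 15 members had at most 3 counts in every library. The matching shares of all 19014 genes were not computed, so these numbers do not set the members apart from other genes.

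**Figure D1:**
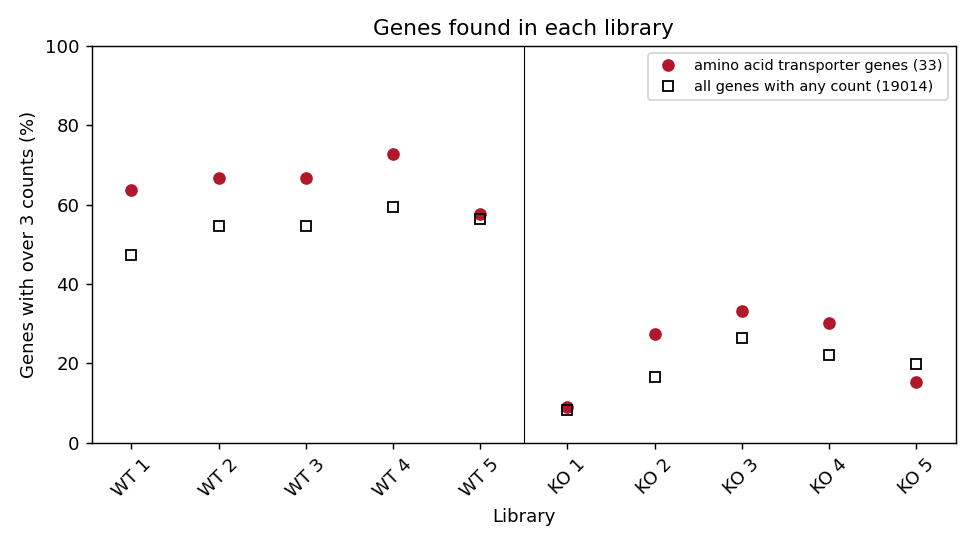
Percentage of genes with over 3 counts in each library (y axis) for the 33 members, labelled amino acid transporter genes (filled circles), and for all 19014 genes with any count (open squares). The members stood at 57.6 to 72.7% in the 5 WT libraries and at 9.09 to 33.3% in the 5 KO libraries, and the share of all genes moved with them.

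Transporter reads of a KO library came from few genes, and which genes differed between libraries. Slc38a1 was the most abundant member by count in every WT library, with 19 to 24.5% of all member counts. In KO libraries 1 to 5 the most abundant member was Slc38a9 (78.7% of member counts), Slc38a1 (42.6%), Slc7a2 (55.2%), Slc3a2 (37.7%) and Slc38a1 (54.3%). Of the 17 members with at least 10 KO counts, 11 had over 90% of these counts in 1 library (median share of the top library 94.4%). In WT this held for 5 of 28 members (median 39.5%), and the same shares over all genes were not computed. The coefficient of variation of the level had a median of 0.545 over the 17 tested members in WT and of 1.88 over the 15 of them with KO counts, beside 0.552 and 1.97 over all tested genes. All members together made up 920 to 1500 CPM of a WT library and 205 to 3750 CPM of a KO library. KO libraries 1 and 5 were below every WT library in this sum and the other 3 KO libraries above every one.

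**Figure D2:**
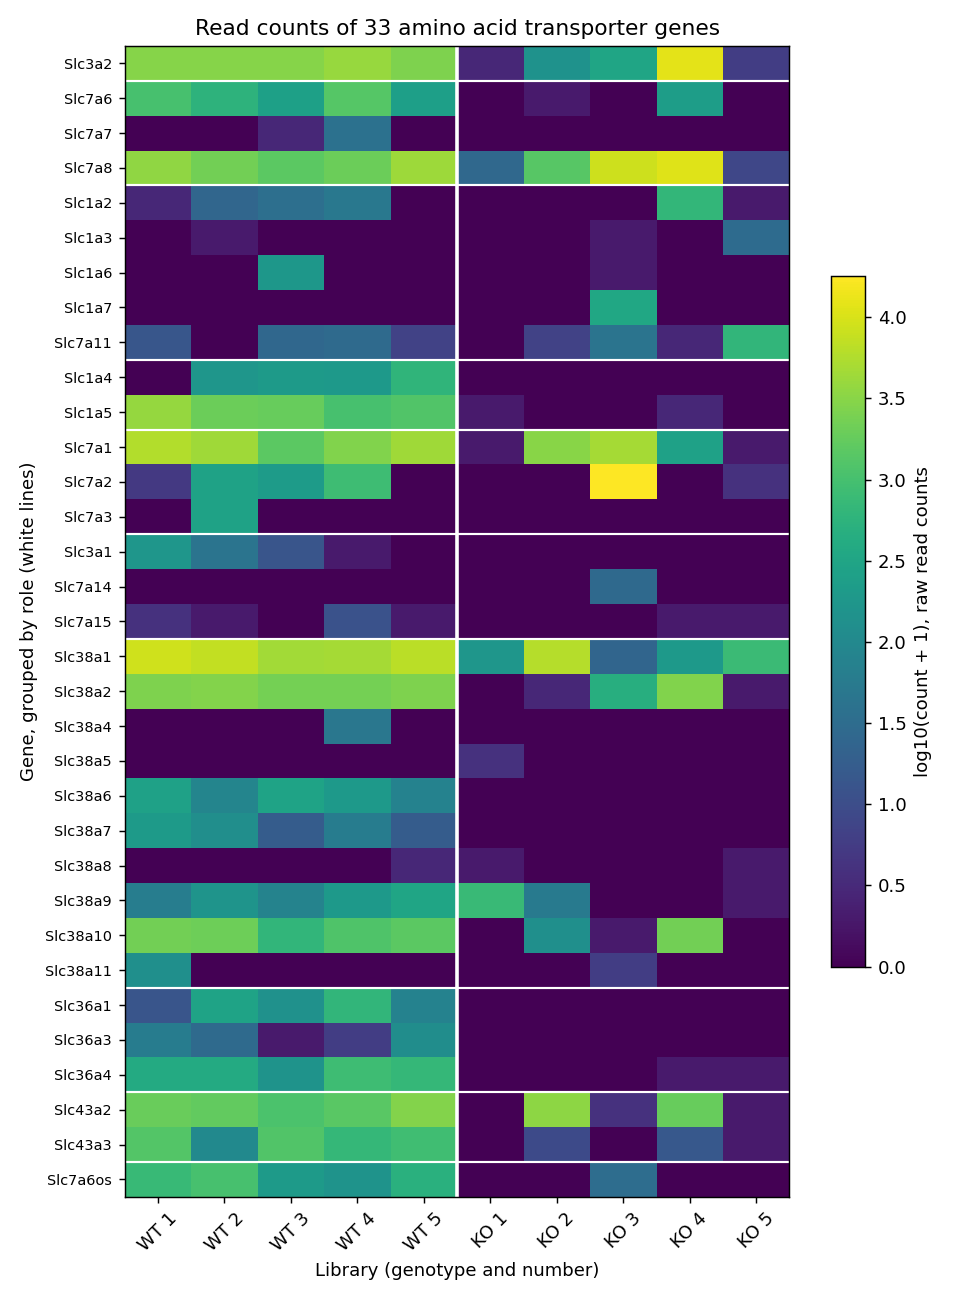
Raw read counts of the 33 members as log10(count + 1) (colour), with genes in rows grouped by role and the 10 libraries in columns. WT columns resemble each other, whereas each KO column holds a different subset, such as 17905 counts of Slc7a2 in KO library 3 and 11805 of Slc3a2 in KO library 4.

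The comparison of KO with WT asks which of these transcripts differ between the libraries of the 2 genotypes. Over 3 counts were found for 8.3 to 26.5% of all genes in KO libraries and 47.3 to 59.3% in WT libraries. Every KO library was also smaller than every WT library, so genotype and library quality cannot be told apart. Of the 17 members abundant enough for edgeR's quasi-likelihood test (Benjamini-Hochberg adjusted p under 0.05 over 7490 genes), 5 were lower in KO (Slc1a5, Slc38a6, Slc38a7, Slc36a4 and Slc43a3), 1 was higher (Slc7a11) and 11 did not pass. Over all tested genes 27.1% were lower and 1.5% higher, so the share of lower members, 29.4%, was near the background. Every KO library was below every WT library for the same 5 members, 29.4% of those tested, and for 28.9% of all tested genes. At most 3 counts in all 5 KO libraries were found for 4 tested members (Slc1a5, Slc38a6, Slc38a7 and Slc36a4), 23.5%, and for 22.3% of all tested genes. No more than 3 counts in 4 or 5 KO libraries were found for 7 tested members (41.2%) and 51.2% of all tested genes. Over 3 counts in all 5 KO libraries were found for Slc7a8 and Slc38a1 (11.8%) and 7.06% of all tested genes. In no tested member was every KO library above every WT library, beside 0.774% of all tested genes. The median log2 fold change was 0.825 for the tested members and −0.467 for all tested genes, and with library size alone as scaling these medians were −0.45 and −1.77. The filter asks for enough counts in 5 libraries, so no count over the tested members describes all 33.

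**Figure D3:**
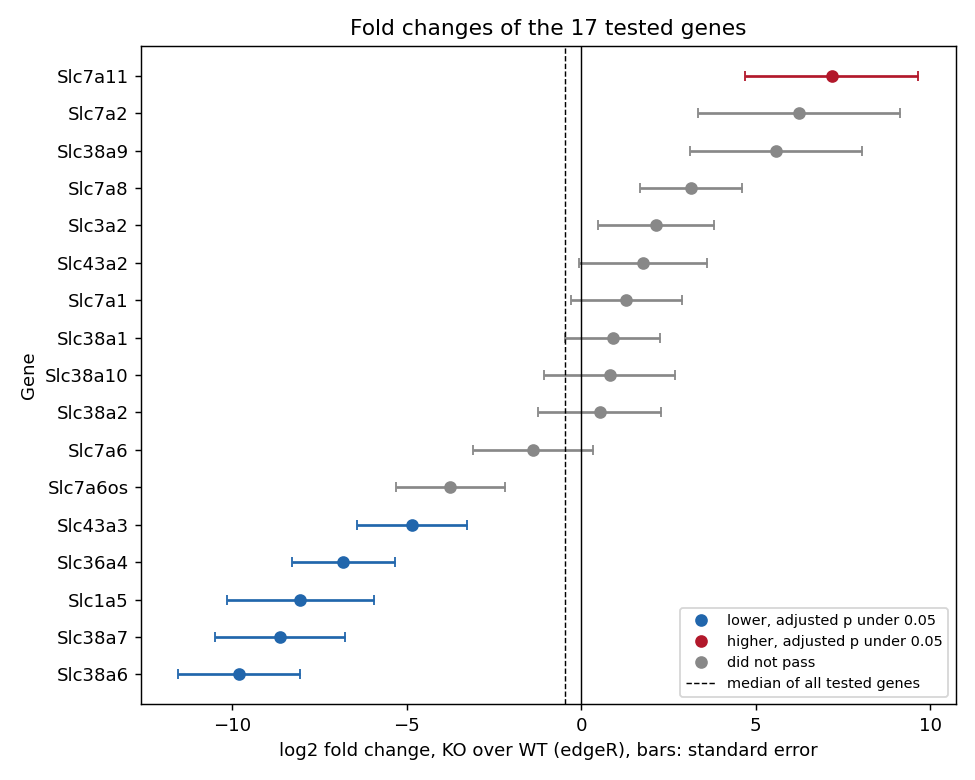
log2 fold change of KO over WT for the 17 tested members with its standard error (bars), coloured by edgeR's call, with the median of all tested genes dashed. Slc38a6 and Slc38a7, at 0 in every KO library, have fitted values that depend on the prior count. Slc7a11 is the 1 member that passed as higher, and 5 passed as lower.

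The heavy chain CD98 and its light chain LAT2 were among the strongest transporter transcripts of WT cells and neither passed the test. Slc3a2, which encodes the CD98 heavy chain that carries several SLC7 light chains to the surface (ENSMUSG00000010095, GRCm38 chromosome 19, 8706882 to 8723369, minus strand), had 3026, 3059, 3013, 4007 and 2720 counts in WT libraries 1 to 5, against 2, 148, 313, 11805 and 5 in the KO libraries in the same order. It was even across WT, while 4 KO libraries were below every WT library and KO library 4 was above every one. TMM-scaled levels were 79.2 ± 13.1 CPM for WT and 351 ± 745 CPM for KO (SD, n = 5 each), with a log2 fold change of 2.15 (SE 1.65, edgeR adjusted p = 0.395). KO library 4 set the direction: without it the log2 fold change was −2.16 (edgeR adjusted p = 0.238).

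Slc7a8, whose product LAT2 exchanges neutral amino acids, had 3581, 2251, 1527, 2002 and 4207 counts in WT and 26, 1382, 8518, 11214 and 7 in KO (ENSMUSG00000022180, chromosome 14, 54722209 to 54781946, minus strand). KO libraries 2, 3 and 4 were above every WT library and KO libraries 1 and 5 below every one on the TMM-scaled level, 67.8 ± 28.8 CPM in WT and 601 ± 734 CPM in KO. The log2 fold change of 3.15 (SE 1.47) did not pass (edgeR adjusted p = 0.135). Without KO libraries 1 and 5, the libraries with the fewest members found, it was 3.83 and passed (edgeR adjusted p = 0.00851). It also passed without either of them alone (0.0443 and 0.0395) and with DESeq2 (0.0177). Slc7a8 was below every WT library in just these KO libraries, so leaving them out raises its fold change by design. In all it passed in 4 of 16 alternatives and missed the threshold in 12, among them library size alone (edgeR adjusted p = 0.366) and voom (adjusted p = 0.434). Slc7a8 and Slc3a2 were both highest in KO library 4 and lowest in KO library 5 on the TMM-scaled level.

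Slc7a6, which encodes the light chain y+LAT2, an exchanger of cationic for neutral amino acids, had 1046, 570, 263, 1367 and 250 counts in WT and 0, 1, 0, 229 and 0 in KO. Its reads in KO came almost wholly from KO library 4 (17.3 ± 12 CPM in WT, 6.56 ± 14.6 CPM in KO, a log2 fold change of −1.38 with SE 1.71 and edgeR adjusted p = 0.617). Without KO library 4 it passed as lower (edgeR adjusted p = 0.00525). Slc7a7, the y+LAT1 light chain of macrophages and epithelia, had 39 counts in WT, 37 of them in WT library 4, the library with the highest macrophage markers, and 0 in KO. It was too weak for the test, and the part of macrophage RNA in its counts was not tested.

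LAT1, the light chain best known for leucine uptake in activated lymphocytes, could not be measured. Slc7a5 (ENSMUSG00000040010, GRCm38 chromosome 8, 121881150 to 121907694, minus strand) is listed at 0 in all 10 libraries. The GENCODE annotation places 100% of its exon bases inside Gm20388, a gene model on the opposite strand that spans 4.43 megabases (119910841 to 124345722). All 71 protein-coding genes that lie wholly inside Gm20388 are listed at 0 in every library, beside 40.4% of 11795 protein-coding genes that overlap no other gene. Gm20388 itself, with 3953 exon bases, had 1973, 1259, 889, 1102 and 1021 counts in WT and 9, 527, 861, 369 and 276 in KO. The zero of Slc7a5 therefore carries no information on expression in either genotype. Of the 11 other matching names at 0, Slc36a3os lies wholly, Slc7a4 by 95.79% and Slc1a1 by 66.31% of exon bases inside another gene, and Slc7a10 by 27.24%. The remaining 7, Slc7a9, Slc7a12, Slc7a13, Slc38a3, Slc36a2, Slc43a1 and Slc36a1os, have no such overlap.

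Slc7a11 was the member that rose, and its call rested on KO library 5. It encodes xCT, the light chain that imports cystine in exchange for glutamate and so feeds glutathione synthesis (ENSMUSG00000027737, chromosome 3, 49892526 to 50443614, minus strand). Its counts were 13, 0, 25, 29 and 6 in WT and 0, 6, 43, 2 and 621 in KO. On the TMM-scaled level 3 KO libraries were above every WT library and the others overlapped with WT (0.38 ± 0.32 CPM in WT, 55.8 ± 121 CPM in KO). The log2 fold change was 7.18 (SE 2.49, edgeR adjusted p = 0.0373). Without KO library 5, which held 92.4% of the KO counts, it was 2.33 and did not pass (edgeR adjusted p = 0.207). The call was also lost without WT library 1, 2 or 5 (edgeR adjusted p = 0.0872, 0.0868 and 0.106), and without WT library 3 or 4 the gene no longer entered the test. Slc7a11 is the longest member, with a span of 551089 bases of which 13922 are exonic. Of 102 tested genes that span at least 500 kilobases 41.2% were higher in KO and 0.98% lower, beside 0.948% and 27.4% of the 7387 shorter ones, a limit of length chosen after the value of Slc7a11 was seen. The part of gene length in the rise was not tested.

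None of the glutamate carriers of SLC1 passed the filter of edgeR's test with all libraries. Slc1a2 had 110 counts in WT and 644 in KO, 643 of them in KO library 4. Slc1a7 had 0 counts in WT and 337 in KO, all in KO library 3, Slc1a3 had 1 and 31 counts, 30 of them in KO library 5, and Slc1a6 had 180 counts in WT library 3 alone and 1 in KO. With no filter on low counts, Slc1a7 and Slc1a3 were called higher (edgeR adjusted p = 0.00927 and 0.0209), and Slc1a2 was called higher without KO library 3 (0.0458). Each of these 4 was found at over 3 counts in at most 1 library of KO.

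The exchanger of glutamine and other neutral amino acids, Slc1a5, fell in KO. Slc1a5, which encodes ASCT2 (ENSMUSG00000001918, chromosome 7, 16781340 to 16798274, plus strand), had 3744, 1988, 1815, 1025 and 1243 counts in WT and 1, 0, 0, 2 and 0 in KO, with no overlap between the groups. Its level was 51.4 ± 33.7 CPM for WT and 0.292 ± 0.509 CPM for KO (edgeR adjusted p = 0.00655). The counts pooled over each group, 9815 and 3, gave a ratio of 390 per TMM-scaled library size (95% counting interval 134 to 1890). With single libraries left out this ratio ran from 272 (without KO library 3) to 831 (without KO library 4). Slc1a5 passed in all 16 alternatives run, with an adjusted p of up to 0.0261. Macrophage and dendritic cell markers were lower in KO too, and the part of RNA of these cells in the Slc1a5 counts was not tested. Without WT library 4, where both marker sums were highest, edgeR's adjusted p was 0.0156 for Slc1a5. Its relative Slc1a4, which encodes ASCT1, had 0, 171, 207, 191 and 597 counts in WT and 0 in KO, at least 46.4-fold lower in pooled counts against 3 counts over the KO group, or at least 28.9-fold without WT library 5. Slc1a4 missed the filter of the test, because WT library 1 had 0 counts as well, and passed as lower with DESeq2.

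**Figure D4:**
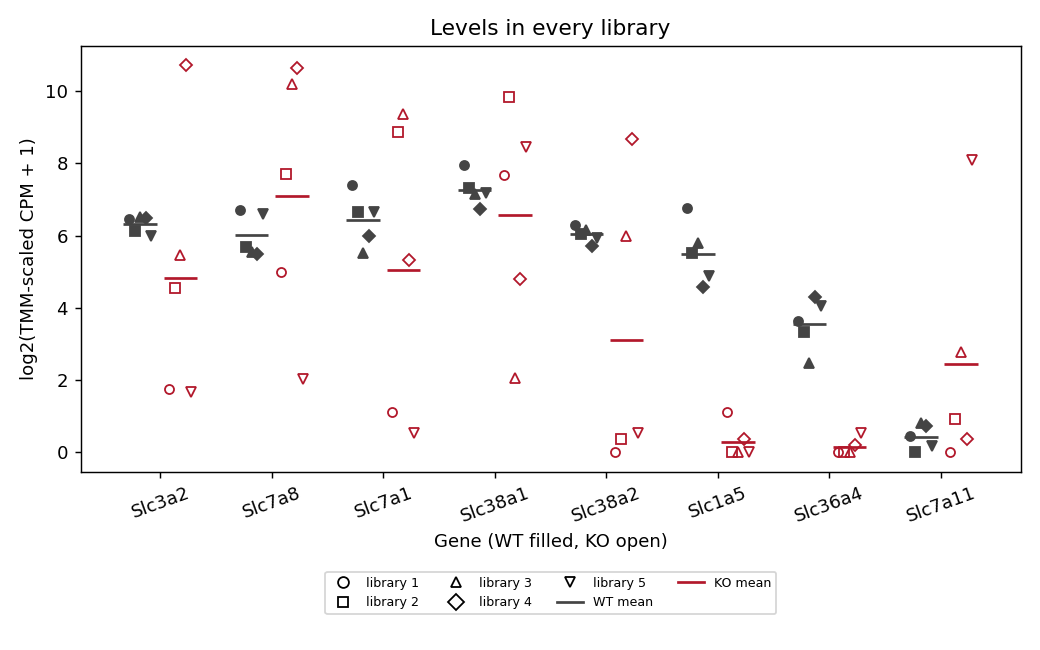
Level of 8 members in every library as log2(TMM-scaled CPM + 1), with WT filled, KO open, a symbol per library number and lines at the group means of these log values. WT points of Slc3a2, Slc38a1 and Slc38a2 lie close together while their KO points spread from below to above WT, and Slc1a5 and Slc36a4 are near 0 in every KO library.

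The arginine carriers did not pass the test, and their KO reads sat in few libraries. Slc7a1, which encodes CAT1, the main carrier of cationic amino acids (ENSMUSG00000041313, chromosome 5, 148327410 to 148399904, minus strand), had 5841, 4432, 1499, 2817 and 4365 counts in WT and 1, 3136, 4778, 274 and 1 in KO. KO libraries 2 and 3 were above every WT library and the other 3 below (94.6 ± 47 and 233 ± 308 CPM, a log2 fold change of 1.30 with SE 1.60 and edgeR adjusted p = 0.611). Slc7a2, which encodes the inducible carrier CAT2, had 4, 280, 219, 867 and 0 counts in WT and 0, 0, 17905, 0 and 3 in KO. The count in KO library 3 was the highest of any member in any library, and the other KO libraries were near 0 (6.43 ± 7.81 and 491 ± 1100 CPM, a log2 fold change of 6.25 with SE 2.90 and edgeR adjusted p = 0.131). Without KO library 3 the log2 fold change was −4.08 (edgeR adjusted p = 0.131). Macrophage markers in KO library 3 were at 0.578 CPM, and 867 of the 1370 WT counts came from WT library 4, where these markers were at 2950 CPM. The part of macrophage RNA in the WT counts was not tested. Slc7a3, another cationic carrier, had 279 counts in WT library 2 and 0 in the other libraries.

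Of the sodium-coupled SLC38 carriers, 2 fell, 4 did not pass and 4 members were too weak for the test. Slc38a1, which encodes the glutamine carrier SNAT1 (ENSMUSG00000023169, chromosome 15, 96571418 to 96642913, minus strand), had 8689, 7152, 4663, 4747 and 6374 counts in WT and 173, 6130, 23, 189 and 801 in KO. It was found in every library, with 2 KO libraries above every WT library and 2 below (160 ± 53.7 and 301 ± 374 CPM, a log2 fold change of 0.91 with SE 1.36 and edgeR adjusted p = 0.683). The sign turned with library size alone (−0.45). Slc38a2, which encodes SNAT2, a carrier induced by amino acid shortage, had 2716, 2908, 2343, 2330 and 2648 counts in WT and 0, 2, 460, 2846 and 1 in KO. It was even across WT, whereas KO libraries 1, 2 and 5 had at most 2 counts (65 ± 9.95 and 93.9 ± 176 CPM, a log2 fold change of 0.53 with SE 1.77 and edgeR adjusted p = 0.866). With library size alone and without KO library 4 its sign turned (−0.65 and −2.03), and with voom it passed as lower (−4.67, adjusted p = 0.0471). Slc38a10 had 2202, 2084, 629, 1229 and 1542 counts in WT and 0, 132, 1, 2228 and 0 in KO (38.2 ± 17.3 and 67.5 ± 140 CPM, a log2 fold change of 0.82 with SE 1.88 and edgeR adjusted p = 0.799). KO library 4 again stood above WT, and the sign turned without it (−2.91) and with library size alone (−0.40).

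The members of SLC38 that fell were weak in WT. Slc38a6 (ENSMUSG00000044712, chromosome 12, 73286779 to 73354049, plus strand) had 270, 85, 292, 192 and 76 counts in WT and 0 in every KO library. It stood at 4.88 ± 3.26 CPM in WT and was at least 36.4-fold lower in KO by pooled counts (edgeR adjusted p = 0.00163, and 0.00266 without WT library 4). Slc38a7, which encodes a lysosomal exporter of glutamine (ENSMUSG00000036534, chromosome 8, 95835920 to 95853539, minus strand), had 207, 123, 16, 59 and 16 counts in WT and 0 in every KO library. Its WT level was 2.17 ± 2.31 CPM, and it was at least 16.7-fold lower in KO by pooled counts (edgeR adjusted p = 0.00283), or at least 10.3-fold without WT library 1. It missed the threshold with voom (adjusted p = 0.0666). Without any single WT library, Slc38a7 no longer entered the test.

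Slc38a9, which encodes a lysosomal arginine sensor of mTORC1 (ENSMUSG00000047789, chromosome 13, 112660751 to 112738749, plus strand), had 63, 155, 79, 191 and 311 counts in WT and 766, 53, 0, 0 and 1 in KO. It was the most abundant member in KO library 1, the library rich in globin reads, and was near 0 in 3 KO libraries (3.79 ± 2.06 and 182 ± 402 CPM). The log2 fold change of 5.58 (SE 2.46) did not pass (edgeR adjusted p = 0.11), was −0.82 without KO library 1 (0.696), and passed without KO library 3, 4 or 5 (edgeR adjusted p = 0.0347, 0.035 and 0.0449) and with RLE size factors (0.0414). The part of red blood cell RNA in the Slc38a9 counts of KO library 1 was not tested. Of the SLC38 members too weak for the test, Slc38a11 had 130 counts in WT, all in WT library 1, and 5 in KO, and Slc38a4 had 48 counts in WT library 4 and 0 in KO. Slc38a5 had 3 counts, all in KO library 1, and Slc38a8 had 2 in each genotype.

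The SLC36 carriers were near absent from KO libraries. Slc36a4, which encodes a high-affinity carrier of proline and tryptophan (ENSMUSG00000043885, chromosome 9, 15709738 to 15743361, plus strand), had 403, 403, 151, 843 and 690 counts in WT and 0, 0, 0, 1 and 1 in KO. The groups did not overlap (11.9 ± 5.54 and 0.116 ± 0.19 CPM, edgeR adjusted p = 0.00182), and it passed in all 16 alternatives run. The pooled counts, 2490 and 2, gave a ratio of 149 per TMM-scaled library size (95% counting interval 41.1 to 1230). With single libraries left out this ratio ran from 104 (without KO library 3) to 269 (without KO library 5). Slc36a1, the lysosomal carrier PAT1, had 12, 291, 143, 639 and 76 counts in WT and 0 in KO, at least 46.2-fold lower, or at least 26.7-fold without WT library 4. Slc36a3 had 59, 29, 1, 5 and 119 counts in WT and 0 in KO, at least 8.47-fold lower, or at least 4.78-fold without WT library 5. Neither Slc36a1 nor Slc36a3 passed the filter of edgeR's test with all libraries. Slc36a1 was called lower with DESeq2 (adjusted p = 0.00385) and by edgeR with no filter (0.0112), and Slc36a3 by neither (0.151 and 0.0562). Slc36a1 and Slc36a4 were highest in WT library 4, which had the most macrophage markers. Without that library edgeR's adjusted p was 0.00398 for Slc36a4, with macrophage markers still at 382 and 312 CPM in WT libraries 2 and 3. The part of macrophage RNA in the SLC36 counts was not tested.

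The SLC43 facilitators differed from each other in KO. Slc43a3, which encodes a purine nucleobase transporter (ENSMUSG00000027074, chromosome 2, 84936579 to 84958509, plus strand), had 1326, 103, 1249, 679 and 893 counts in WT and 0, 8, 0, 14 and 1 in KO. It fell with no overlap between the groups, from 22.6 ± 15.3 to 0.727 ± 0.862 CPM (a log2 fold change of −4.84 with SE 1.57 and edgeR adjusted p = 0.0253). The call was lost without WT library 4 (edgeR adjusted p = 0.0508) and without KO libraries 1 and 5 (0.0602). It was also narrowly lost without WT library 3 (0.05 as rounded). Slc43a2, which encodes LAT4, a facilitator for branched-chain amino acids and phenylalanine (ENSMUSG00000038178, chromosome 11, 75531694 to 75577575, plus strand), had 1944, 1712, 1115, 1434 and 2926 counts in WT and 0, 3383, 3, 1851 and 1 in KO. KO libraries 2 and 4 were above every WT library and the other 3 near 0 (45.1 ± 15.3 and 154 ± 228 CPM, a log2 fold change of 1.78 with SE 1.83 and edgeR adjusted p = 0.536). The difference between the effects on these genes was not tested.

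Slc3a1, Slc7a14 and Slc7a15 were rare. Slc3a1, the heavy chain rBAT of kidney and gut, had 228 counts in WT, 173 of them in WT library 1, and 0 in KO. Slc7a14 had 27 counts, all in KO library 3, and Slc7a15 had 16 counts in WT and 2 in KO, with 92.58% of its exon bases inside another gene. Slc7a6os, the member that is no transporter, had 739, 1023, 203, 152 and 493 counts in WT and 0, 0, 32, 0 and 0 in KO (12.9 ± 8.77 and 0.876 ± 1.96 CPM, a log2 fold change of −3.74 with SE 1.57 and edgeR adjusted p = 0.0914). KO library 3 alone held its KO counts, and without it the gene passed as lower (edgeR adjusted p = 0.00563).

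Levels of different members can be compared only per length, and the order in WT depended on the length used. Per kilobase of annotated exon, Slc3a2 led with 22.4 ± 3.72 TMM-scaled CPM, followed by Slc7a8 with 13.5 ± 5.76, Slc1a5 with 12.3 ± 8.07, Slc38a1 with 9.27 ± 3.12, Slc7a1 with 8.21 ± 4.08 and Slc38a2 with 7.35 ± 1.13 (SD, n = 5). Slc3a2, Slc7a8 and Slc1a5 overlapped within their SD, as did Slc7a8 and the 4 below it. Per kilobase of gene span, Slc38a2 with 5.27 ± 0.807 and Slc3a2 with 4.8 ± 0.796 had the highest means, followed by Slc1a5 with 3.04 ± 1.99 and Slc38a1 with 2.23 ± 0.752. The first 3 of these overlapped within their SD. Both lengths are given because no source states whether reads were counted over exons or over whole spans.

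Related genes were read from 4 lists. Of the 24 tested genes of amino acid sensing by mTORC1, 10 fell, 0 rose and 14 did not pass with edgeR. At edgeR's unadjusted p under 0.05, 0 rose, and over the whole list DESeq2 called 0 higher at an adjusted p under 0.05. The median log2 fold change was −2.46 beside −0.467 for all tested genes. The smallest p-values were those of Lamtor1 and Lamtor3, which tether mTORC1 to the lysosome (1767 and 889 counts in WT, 1 and 0 in KO), and Mios, a part of the GATOR2 complex (1130 and 1), each with an edgeR adjusted p of 0.00163. Of the 16 tested genes of the response through ATF4, the transcription factor of amino acid shortage, 6 fell, 1 rose and 9 did not pass (median −0.79). Phgdh of serine synthesis had 1111 counts in WT and 0 in KO, Pck2 had 774 and 0, and Eif2s1, the subunit phosphorylated in this response, had 8252 and 1 (edgeR adjusted p = 0.00163, 0.00163 and 0.00249). The gene that rose was Atf3, a stress-induced factor, from 31.8 ± 17.5 to 526 ± 351 CPM (edgeR adjusted p = 0.0486). Its counts were 401, 1188, 808, 1774 and 2534 in WT and 1, 6590, 4199, 3942 and 1147 in KO. KO library 1 was thus below every WT library.

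Of the 7 tested carriers of other families, 3 fell, 4 did not pass and 0 rose with edgeR, with a median of −0.41. At edgeR's unadjusted p under 0.05, 0 rose, and over the whole list DESeq2 called 3 higher at an adjusted p under 0.05. Those that fell were Slc15a4 and Slc15a3, lysosomal carriers of peptides and histidine (1173 and 2759 counts in WT, 1 and 1 in KO), and Slc25a44, a mitochondrial carrier of branched-chain amino acids (798 and 0), with edgeR adjusted p-values of 0.00163, 0.00171 and 0.00164. Of the 16 tested genes of glutamine and glutathione metabolism, 4 fell, 12 did not pass and 0 rose with edgeR, with a median of 1.16. At edgeR's unadjusted p under 0.05, 1 rose, and over the whole list DESeq2 called 2 higher at an adjusted p under 0.05. The smallest p-values were those of Ctps, which makes CTP with glutamine nitrogen (785 and 1 counts), Gfpt1, which makes glucosamine phosphate (7952 and 3), and Got2, the mitochondrial aspartate aminotransferase (8114 and 7), with edgeR adjusted p-values of 0.00185, 0.00257 and 0.00505. The numbers that fell, 10 of 24, 6 of 16, 3 of 7 and 4 of 16, stand beside the 27.1% of all tested genes, and no list was compared with other genes by a test.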

How the data were processed

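Read counts per gene were deposited by the authors as 1 whole-number count table with a column for each of 10 libraries (5 WT, 5 KO), not normalized. The submitters' processing notes name STAR 2.6.0c, SAMtools 1.8, HTSeq 0.9.1 and GRCm38. The kit is stranded, per the labels' protocols, and for the strand setting of the counting, its annotation release and any filters the entry is: not given in the sources used here. The genotype label gives the groups. Of 54838 identifiers 54809 matched GENCODE M21 (GRCm38), used for positions, spans and exon lengths.

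Genes were kept by filterByExpr (minimum 10 counts), scaled by TMM and tested with edgeR 4.0.16 (R 4.3.3) by the quasi-likelihood test of KO against WT, with Benjamini-Hochberg adjustment over the 7490 genes kept and a threshold of 0.05. A standard error is the log2 fold change divided by the square root of F. A member was called missing in a library at 3 counts or fewer. A group at 0 was set to 3 counts over the group for a bound, and 1 to 3 counts gave a ratio with an exact 95% interval, both from counts pooled over the group per summed TMM-scaled library size (SciPy 1.17.1). With no molecular identifiers, reads of 1 molecule may be counted repeatedly, and these bounds and intervals cover only counting error. The test was tried on simulated counts drawn with the spread of the WT libraries in both groups. That trial therefore does not cover the uneven KO libraries. Alternatives were RLE factors, library size alone, DESeq2 1.42.0, voom (limma 3.58.1), no filter, each library left out in turn, and KO libraries 1 and 5 left out. The members and lists were chosen with earlier results of these data known. Values in every library are given for members that passed, reached a mean of 20 CPM in either group or had over 3 counts in at least 4 KO libraries, for Slc7a5, Slc3a2, Slc7a1, Slc7a8, Slc7a11, Slc1a5, Slc38a1, Slc38a2 and Slc38a9, and for Slc1a4, Slc36a1 and Slc36a3, added after their values were seen. Of each list of related genes up to 3 were named by smallest p, and Atf3 was named after its value was seen. Lists of NK cell, dendritic cell, neutrophil, eosinophil and mast cell, and epithelial markers summed to at most 9.49, 26.4, 7.09, 14.6 and 12 CPM in any library.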

Additional observations from a re-analysis of the deposited data

Results flagged for a closer look

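In 30 sets of 5 TMM-scaled levels (17 members in 2 genotypes, where a library had over 3 counts), 8 held a library farther from the rest than Dixon's 95% critical value for 5 samples (0.71) allows. That limit flags about 1 in 20 sets of normally distributed values. These levels are not log-transformed, and in KO they were uneven over all tested genes (median coefficient of variation 1.97), so that rate does not apply. The share of flagged sets over all tested genes was not computed. All 8 were high values in KO, and 4 of them came from KO library 4. That library had 1680 CPM of Slc3a2 (2.19 to 42.9 in the other KO libraries), 32.6 CPM of Slc7a6 (0 to 0.15), 406 CPM of Slc38a2 (0 to 63) and 318 CPM of Slc38a10 (0 to 19.8). KO library 3 had 2450 CPM of Slc7a2 (0 to 1.31) and 4.38 CPM of Slc7a6os (0 in the others). KO library 5 had 272 CPM of Slc7a11 (0 to 5.89), and KO library 1 had 901 CPM of Slc38a9 (0 to 7.95).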

How the results depend on the processing

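No paired analysis was possible because the labels' library numbers are all different and WT and KO share none. Of the 5 members lower in KO, Slc1a5, Slc36a4 and Slc38a6 passed in all 16 alternatives, but no alternative separates genotype from library quality. The count of lower members was 5 to 7 in all alternatives that kept every library, 6 without KO libraries 1 and 5, and 3 to 8 with single libraries left out. The count of higher members was 2 of 17 with RLE size factors (2.58% of all tested genes), 0 of 17 with library size alone (0.654%) and 0 of 17 with voom (0.948%). With library size alone and with voom it was 1 each at an unadjusted p under 0.05. It was 3 of 33 with DESeq2 (7.95% of 19014 genes) and 5 of 33 with no filter on low counts (12.3% of 19014 genes). Without KO libraries 1 and 5 it was 1 of 22 (3.53% of all), and with single libraries left out it was 0 to 3 (1.11 to 3.72% of all). DESeq2 gave no adjusted p for 13 of the 33 members, Slc7a11 and Slc3a2 among them, and Slc38a5, which it called higher, had 3 counts in all. Over all genes, lower calls numbered 1812 to 3024 in the alternatives that kept every library. They numbered 3291 without KO libraries 1 and 5 and 1734 to 3350 with single libraries left out. Higher calls numbered 193 with RLE size factors, 49 with library size alone, 1512 with DESeq2, 71 with voom, 2345 with no filter, 348 without KO libraries 1 and 5 and 82 to 333 with single libraries left out. Of all calls 94.8% were lower ones, against 63.3% with DESeq2 and 56.3% with no filter. The median over genes of the change in log2 fold change was −1.23 with library size alone, −2.04 with voom and 0.45 with RLE factors, and the median over tested genes itself went from −0.47 to −1.77, −3.58 and 0.09. Signs turned with library size alone for Slc38a1 (−0.45), Slc38a2 (−0.65) and Slc38a10 (−0.40), and with voom for Slc3a2 (−2.19), Slc38a1 (−0.93), Slc38a2 (−4.67), Slc38a9 (−0.35), Slc38a10 (−4.19), Slc43a2 (−3.80) and Slc7a1 (−2.40). Leaving out KO library 4 turned Slc3a2 (−2.16), Slc38a2 (−2.03) and Slc38a10 (−2.91), KO library 3 Slc7a2 (−4.08), and KO library 1, alone or with KO library 5, Slc38a9 (−0.82 and −0.53). At a limit of at least 1 count, 12.6 members were found per KO library. With single libraries left out the mean was 21 to 22.25 members in WT and 6.75 to 8.75 in KO. The cause of these shifts was not tested. Leaving out single libraries, the highest log2 fold changes were 2.45 for Slc3a2, 0.84 for Slc38a2, 6.56 for Slc7a2, 6.57 for Slc38a9 and 1.13 for Slc38a10. With KO levels this uneven, missing the threshold does not show equal levels.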
